A study of Arabidopsis thaliana with 6 samples.

Results

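The 10 genes described here encode enzymes and a regulator of chlorophyll synthesis, and their transcripts were measured in germinated Arabidopsis seeds with and without a treatment that brings back desiccation tolerance. They were taken by their locus identifiers from a table of 30509 genes, and all of them were present: HEMA1, GUN4, CHLH, CHLI1, CHLM, CRD1, PORA, PORB, PORC and CAO. Both groups were whole germinated seeds of the accession Columbia (Col-0), cold stratified and then germinated under constant white light to the stage of radicle protrusion. DT seeds (desiccation tolerant) were afterwards kept for 3 d in the dark in polyethylene glycol (PEG), a polymer that withdraws water osmotically, at -2.5 MPa. DS seeds (desiccation sensitive) were collected at the same stage and not treated. The labels name 3 biological replicates of DT and 3 of DS, and every replicate was hybridized to an array of its own. None of the arrays analysed here is of seeds kept for the same time in the dark without PEG, so PEG, darkness and time since germination cannot be told apart. Whole seeds hold several tissues, and fewer cells of a type cannot be told apart from less RNA per cell.

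Chlorophyll is made in plastids by the tetrapyrrole pathway. The pathway starts from glutamate, passes through 5-aminolevulinic acid (ALA) and protoporphyrin IX, and then splits into a heme branch and a chlorophyll branch. The chlorophyll branch opens with the insertion of magnesium, and its reduction of protochlorophyllide, by protochlorophyllide oxidoreductase (POR), needs light in flowering plants. Free intermediates of the pathway produce reactive oxygen in light, and the genes of several steps are controlled together by light and plastid signals. Of the 3 POR genes of Arabidopsis, PORA is known from dark-grown seedlings, where its transcript disappears upon illumination, PORB is expressed in darkness and in light, and PORC depends on light.

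The deposited table holds 1 quantile-normalized value per gene and array, read here as log2. The median over all genes was 4.72, 4.72 and 4.73 on the DT arrays and 4.76, 4.77 and 4.78 on the DS arrays. Correlations across genes within a group were 0.958 to 0.975 in DT and 0.972 to 0.977 in DS. DT replicate 1 had the lowest, 0.958 with each of its partners. It was also the highest DT array in 8 of the 10 genes, and values without it are given below. As a gauge of background, 95% of 3629 loci annotated as pseudogenes had a mean log2 value below 4.96, a level under which 65.1% of all genes lay. DT was set against DS with limma, a gene-wise linear model in which the variance of a gene borrows from that of all others. A gene was called at a Benjamini-Hochberg adjusted p of at most 0.05 over the whole table. All changes below are log2 differences, DT minus DS. The study calls the replicates independent and biological, and the sources used here do not give the parent plants of the seeds, so the p-values measure the spread between these seed samples.

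Of the 10 chlorophyll synthesis genes, 9 fell and 1 rose in DT seeds. Of all genes, 19.9% were called lower and 9.97% higher. These were 6085 and 3043 genes, beside 5226 and 4052 with the arrays centred on their medians and 5026 and 4484 after repeated quantile normalization, and under both scalings 9 of the 10 genes were lower and CAO higher. When the genes were ordered by their mean value, 7 of the 10 were among the brightest 7628, of which 40.4% were called lower and 23.2% higher. The other 3, HEMA1, PORA and PORC, were among the next 7627, of which 27.4% were called lower. The median difference was -0.76 for the 10 genes, against -0.02 for all genes and -0.10 for the brightest 7628. In each of the 9 falling genes all DT arrays lay below all DS arrays, as was the case for 27.0% of all genes. In CAO all DT arrays lay above, as for 15.5% of all genes. A stricter rule, a log2 difference of at least 1 with an unadjusted p of at most 0.05, called 1.36% of all genes lower and 0.862% higher. It was met by 3 of the 10 genes, PORB, CHLI1 and CRD1, all lower. Without DT replicate 1 these 9 genes were also called lower, and the median difference was -0.80.

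**Figure D1:**
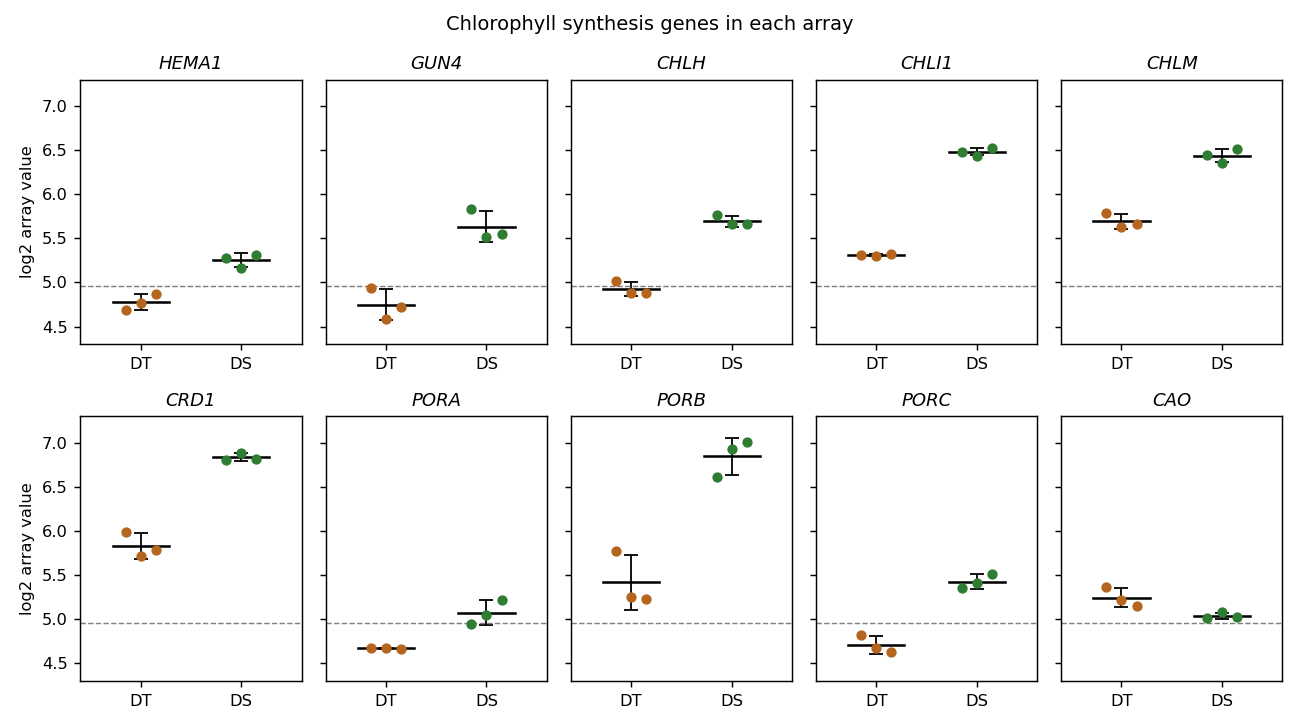
Log2 array value (vertical axis) of each of the 10 chlorophyll synthesis genes in the 3 DT arrays (left, brown) and the 3 DS arrays (right, green), with replicates 1 to 3 from left to right, the mean as a bar and the SD as a whisker; the dashed line marks the pseudogene level of 4.96. The DT points lie below the DS points in 9 panels and above them in CAO, and levels of different genes cannot be set against each other.

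The pathway's entry step is carried out by glutamyl-tRNA reductase, whose main gene in green tissue is HEMA1 (AT1G58290, chromosome 1 from 21623700 to 21626402 of TAIR10.1, 3 exons). HEMA1 was at 4.69, 4.77 and 4.87 in DT and at 5.27, 5.17 and 5.32 in DS. The groups did not overlap, and the difference was -0.48 (SE 0.065, adjusted p = 0.000899). All DT values of HEMA1 lay under the pseudogene level of 4.96.

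Magnesium is inserted into protoporphyrin IX by Mg-chelatase, a complex of CHLH, which binds the porphyrin, and the CHLI and CHLD subunits, which use ATP. GUN4 binds the porphyrin too and stimulates the enzyme. CHLH (AT5G13630, also known as GUN5, chromosome 5 from 4387307 to 4392429, 5 exons) was at 5.02, 4.88 and 4.88 in DT and at 5.76, 5.66 and 5.66 in DS. Its difference was -0.77 (SE 0.059, adjusted p = 4.33e-05). CHLI1 (AT4G18480, chromosome 4 from 10201672 to 10203469, 3 exons) was at 5.31, 5.30 and 5.33 in DT and at 6.49, 6.44 and 6.52 in DS. Replicates of CHLI1 lay closer together than the gap of 1.11 between the groups, and its difference of -1.17 had the smallest SE of the 10 genes (0.045, adjusted p = 1.72e-06). CHLI1 shares 116 bases with AT4G18465 on the other strand, which rose by 0.52 (adjusted p = 0.000686). GUN4 (AT3G59400, chromosome 3 from 21948501 to 21949796, 1 exon) was at 4.94, 4.59 and 4.72 in DT and at 5.84, 5.51 and 5.55 in DS. Replicates of GUN4 were wider apart, with SDs of 0.18 in DT and 0.18 in DS, and its difference was -0.89 (SE 0.112, adjusted p = 0.000595). The DT means of CHLH and GUN4, 4.93 and 4.75, were under the pseudogene level. GUN4 shares 946 bases with a locus on the other strand, AT3G59410, whose difference was 0.13 (adjusted p = 0.0735), and whether the array values separate the strands is not given in the sources used here.

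The next steps are the methylation of Mg-protoporphyrin by CHLM and the closing of the fifth ring by a cyclase that contains CRD1. CHLM (AT4G25080, chromosome 4 from 12876822 to 12878703, 3 exons) was at 5.79, 5.63 and 5.66 in DT and at 6.45, 6.36 and 6.51 in DS. The difference of CHLM was -0.75 (SE 0.064, adjusted p = 7.62e-05). CHLM shares 37 bases with AT4G25090 on the other strand, which had 0.02 (adjusted p = 0.798). CRD1 (AT3G56940, also called CHL27, chromosome 3 from 21076505 to 21078443, 5 exons) was at 5.99, 5.72 and 5.78 in DT and at 6.80, 6.89 and 6.82 in DS. Its difference was -1.01 (SE 0.075, adjusted p = 3.8e-05). With an array left out it lay between -1.09, without DT replicate 1, and -0.95, without DT replicate 2. CRD1 shares 147 bases with AT3G56950 on the other strand, a locus that also fell (-0.84, adjusted p = 1.98e-05), and 259 bases with AT3G08795 on that strand, for which no value was used here.

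All 3 POR genes fell. PORB (AT4G27440, chromosome 4 from 13725546 to 13727440, 4 exons) was at 5.78, 5.26 and 5.22 in DT and at 6.61, 6.93 and 7.01 in DS. This was the largest fall among the 10 genes, -1.43 or 2.69-fold on the array scale, with a 95% confidence interval of -1.80 to -1.05 (SE 0.162, adjusted p = 0.000341). It also had the widest spread, with DT replicate 1 well above its partners, and the difference was -1.61 without that array. PORB shares 71 bases with AT4G27450 on the other strand, which rose by 0.91 (adjusted p = 6.17e-05). PORC (AT1G03630, chromosome 1 from 907523 to 909650, 5 exons) was at 4.82, 4.67 and 4.63 in DT and at 5.35, 5.41 and 5.52 in DS. The difference of PORC was -0.72 (SE 0.067, adjusted p = 0.000127). PORC shares 121 bases with AT1G03620 on the other strand, which had 0.13 (adjusted p = 0.0764). PORA (AT5G54190, chromosome 5 from 21990864 to 21992814, 4 exons) was at 4.68, 4.67 and 4.66 in DT and at 4.95, 5.05 and 5.22 in DS. So the signal of PORA, the gene known from darkness, was lower in the seeds kept in the dark with PEG, by 0.41 on the log2 scale (SE 0.070, adjusted p = 0.00305). All DT values of PORA and that of DS replicate 1 lay under the pseudogene level of 4.96, and its DS mean, 5.08, was close to it. PORC had a DT mean of 4.71, under that level as well.

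To set the signals of the 3 paralogues against each other, the log2 value of one was subtracted from that of another within each array. PORA minus PORB was -1.10, -0.59 and -0.56 in DT and -1.66, -1.87 and -1.79 in DS, a shift of 1.02. PORB minus PORC was 0.96, 0.59 and 0.59 in DT and 1.25, 1.52 and 1.49 in DS, a shift of -0.71. PORA minus PORC was -0.14, -0.0032 and 0.03 in DT and -0.40, -0.36 and -0.29 in DS, a shift of 0.31. In all 3 contrasts the groups did not overlap. The exact two-sided permutation test gave p = 0.1 for each, and 0.1 after adjustment over the 3 contrasts, which is the smallest value that 3 arrays against 3 allow. The DT means of PORA and PORC were under the pseudogene level and that of PORB, 5.42, was above it. The shifts therefore describe the array signals, and do not show that the transcripts changed unequally. The annotated transcripts of PORA and PORB share 28 of PORA's 1586 stretches of 25 bases, or 1.77%, while PORC shares 0 with either.

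**Figure D2:**
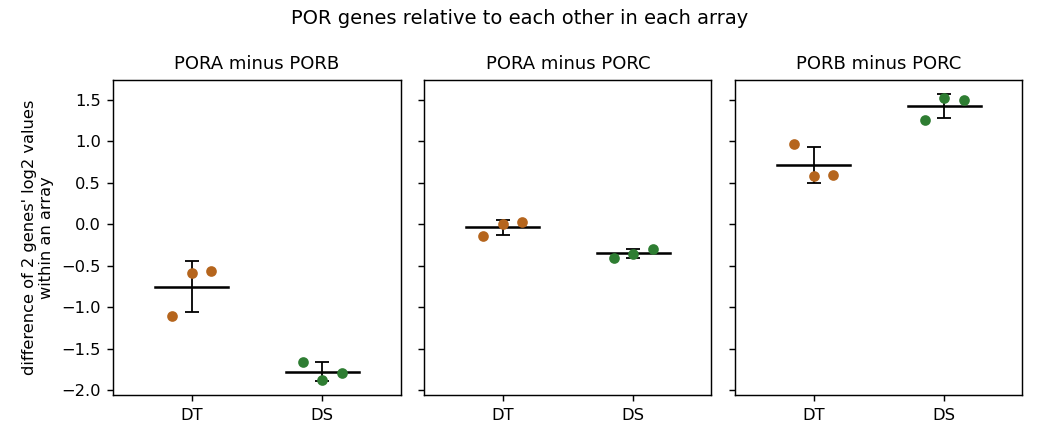
Difference between the log2 values of 2 POR genes within an array (vertical axis) for the 3 DT arrays (left, brown) and the 3 DS arrays (right, green), with the mean as a bar and the SD as a whisker. The distance between groups within a panel is 1.02 for PORA minus PORB, 0.31 for PORA minus PORC and -0.71 for PORB minus PORC; the absolute height of a panel carries no meaning.

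CAO, chlorophyllide a oxygenase (AT1G44446, listed as CH1, chromosome 1 from 16848308 to 16851271, 9 exons), makes chlorophyll b and was the exception. It was at 5.36, 5.21 and 5.15 in DT and at 5.02, 5.08 and 5.03 in DS. The groups were separated by a gap of 0.07, and the rise of 0.20 (SE 0.063, adjusted p = 0.0428) was smaller in size than each of the 9 falls. The call did not hold when DT replicate 1 was left out (0.14, adjusted p = 0.0772), nor without DT replicate 2, DS replicate 1, DS replicate 2 or DS replicate 3, where the adjusted p was 0.0757 to 0.117. Array quality weights and the replicate block ended it too (adjusted p = 0.0509 and 0.0618). The difference remained above 0 in all of these. CAO shares 36 bases with AT1G44414 on the other strand, which had 0.28 (adjusted p = 0.158).

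**Figure D3:**
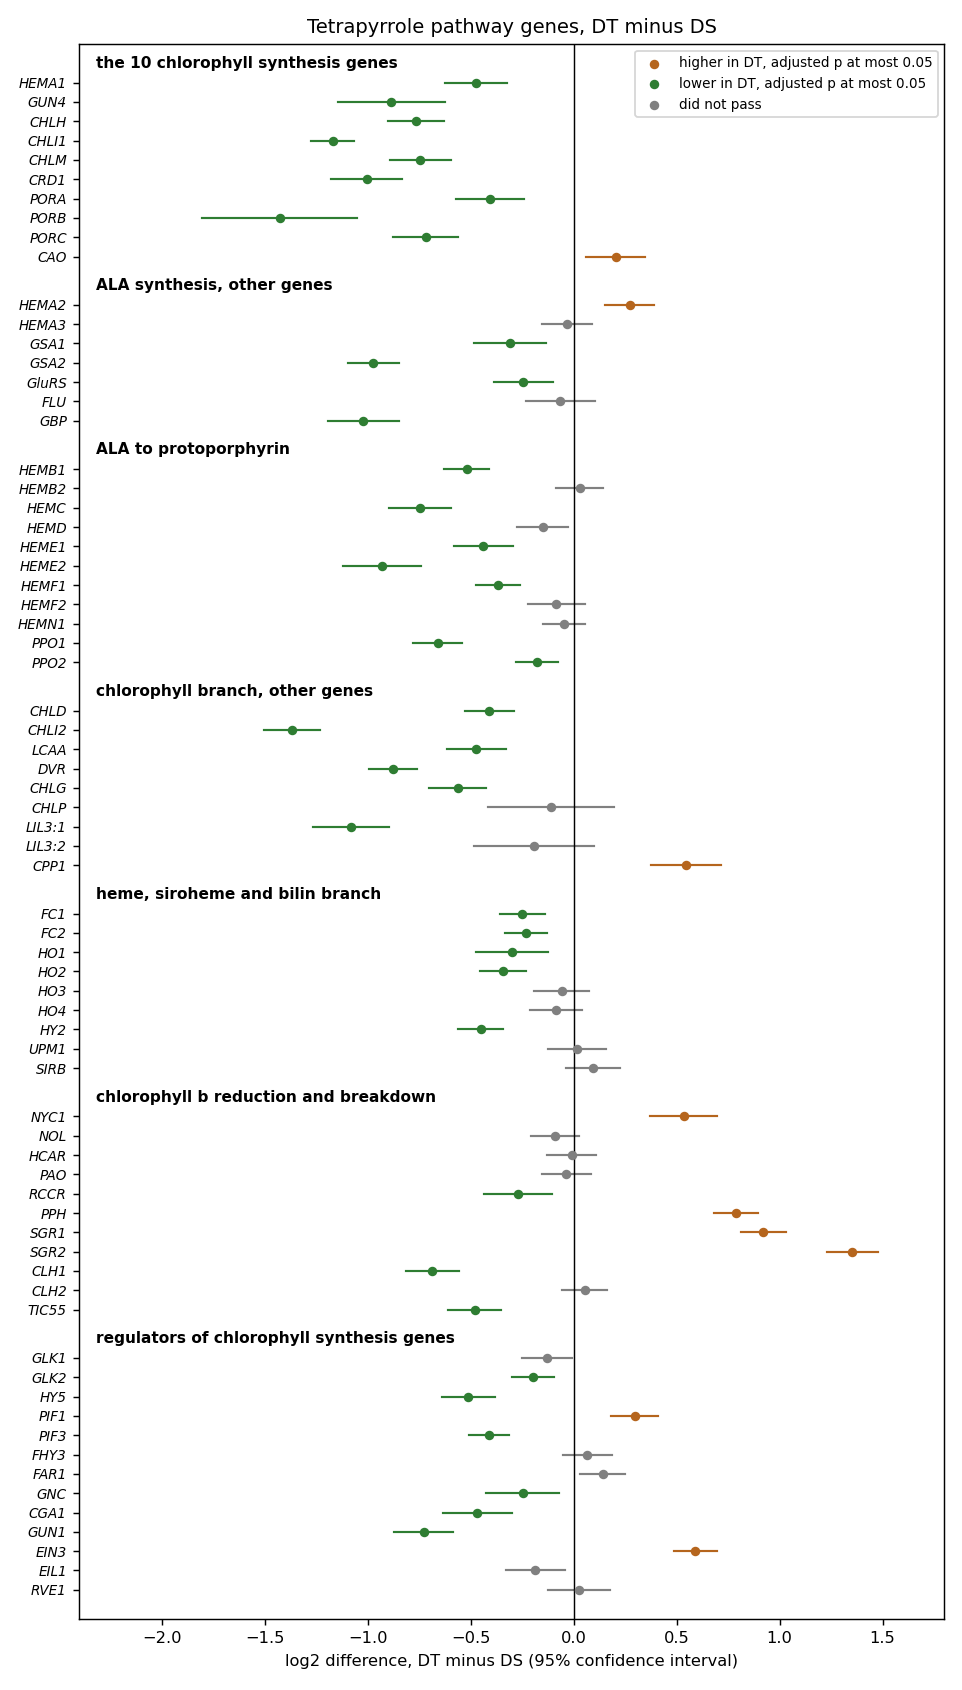
Log2 difference, DT minus DS, with its 95% confidence interval from limma (horizontal axis) for the 10 chlorophyll synthesis genes and the 60 genes of 6 further lists of the tetrapyrrole pathway, one line per gene, coloured by call. Of the 60 genes, 31 were lower, 8 were higher and 21 did not pass, beside 19.9% lower and 9.97% higher of all genes. The list of chlorophyll b reduction and breakdown holds 4 of the 8 rises.

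The other genes of the pathway were read from 6 lists with 60 genes in all, and 31 of these were called lower and 8 higher. Of all genes 19.9% were called lower and 9.97% higher. The brightest 7628, which hold 35 of the 60, had 40.4% lower and 23.2% higher. The median difference of the 60 genes was -0.20, against -0.02 for all genes. In ALA synthesis, 4 of 7 genes fell and 1 rose, with a median of -0.24. GSA2, a glutamate-1-semialdehyde aminomutase, fell by 0.97 (adjusted p = 9.4e-06) and GBP, which tethers glutamyl-tRNA reductase to the membrane, by 1.02 (adjusted p = 3.42e-05). GSA1, the paralogue of GSA2, fell by 0.31 and GluRS, the glutamyl-tRNA synthetase of plastids, by 0.24, and neither passed when DS replicate 2 or DS replicate 3 was left out, which left 2 genes lower. GSA1 did not pass after repeated quantile normalization either (-0.18, adjusted p = 0.0537), nor GluRS without DT replicate 2 (adjusted p = 0.0643). The DT mean of GluRS, 4.88, lay under the pseudogene level. HEMA2, the glutamyl-tRNA reductase gene of non-green tissue and stress, took the other direction from HEMA1. It was at 5.52, 5.54 and 5.50 in DT and at 5.24, 5.18 and 5.32 in DS, a rise of 0.27 (SE 0.051, adjusted p = 0.00451). The HEMA1 and HEMA2 transcripts share 41 of HEMA1's 2287 stretches of 25 bases. HEMA3 had -0.03 (adjusted p = 0.707), with means under the pseudogene level in both groups. FLU, a negative regulator of ALA synthesis in the dark, had -0.07 (adjusted p = 0.579), with a 95% confidence interval of -0.23 to 0.10.

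Between ALA and protoporphyrin IX, 7 of 11 genes fell and 0 rose, beside 19.9% lower and 9.97% higher of all genes. The median of the 11 was -0.37. The single gene above 0 was HEMB2 (0.03, unadjusted p = 0.566), whose means lay under the pseudogene level in both groups. The falls were -0.93 for HEME2, a uroporphyrinogen decarboxylase, -0.75 for HEMC, porphobilinogen deaminase, -0.66 for PPO1, the plastid protoporphyrinogen oxidase, -0.52 for HEMB1, ALA dehydratase, -0.44 for HEME1, -0.37 for the coproporphyrinogen oxidase HEMF1 and -0.18 for PPO2. The call of PPO2 was lost without DT replicate 2 or DS replicate 2 (adjusted p = 0.0539 and 0.052) and after repeated quantile normalization (-0.11, adjusted p = 0.0642). Its DT mean, 4.84, lay under the pseudogene level. HEMD, uroporphyrinogen III synthase, had -0.15 (adjusted p = 0.0693), with DT arrays at 4.93, 4.98 and 4.91 and DS arrays at 5.04, 5.05 and 5.17.

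In the chlorophyll branch beyond the 10 genes, 6 of 9 fell and 1 rose, with a median of -0.47, and all 9 were among the brightest 7628. Of those 7628, 40.4% were called lower and 23.2% higher. CHLI2, the paralogue of CHLI1, was at 4.86, 4.80 and 4.82 in DT and at 6.12, 6.16 and 6.30 in DS, a difference of -1.37 (SE 0.059, adjusted p = 3.09e-06). All DT values of CHLI2 lay under the pseudogene level. The transcripts of CHLI1 and CHLI2 share 26 of 1584 stretches of 25 bases, or 1.64%. CHLD, the remaining chelatase subunit, had -0.41 (adjusted p = 0.000554), so the genes of all chelatase subunits fell. LIL3:1, a membrane protein that holds POR and geranylgeranyl reductase, had -1.08, DVR, which reduces the vinyl group before POR acts, -0.88, CHLG, which attaches the phytol tail, -0.56 and LCAA, a partner of CRD1 in the cyclase, -0.47. CHLP, geranylgeranyl reductase, was at 5.91, 6.50 and 6.25 in DT and at 6.28, 6.36 and 6.35 in DS, and the groups overlapped (-0.11, 95% confidence interval -0.42 to 0.19). LIL3:2 overlapped too, with -0.19 (adjusted p = 0.322). In DVR the DT mean, 4.91, lay under the pseudogene level. CPP1, a chaperone-like protein of POR, rose, with 6.55, 6.73 and 6.79 in DT and 6.07, 6.15 and 6.22 in DS (0.54, SE 0.073, adjusted p = 0.000836).

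In the heme, siroheme and bilin branch 5 of 9 genes fell and 0 rose, beside 19.9% lower and 9.97% higher of all genes. The median of the 9 was -0.23. The fallers were HY2, phytochromobilin synthase, at -0.45, the heme oxygenases HO2 and HO1 at -0.34 and -0.30, and the ferrochelatases FC1 and FC2 at -0.25 and -0.23. HO1 was not called without DT replicate 2, DT replicate 3, DS replicate 2 or DS replicate 3, nor after repeated quantile normalization (-0.17, adjusted p = 0.173). UPM1 and SIRB, which lead to siroheme, had 0.02 (unadjusted p = 0.798) and 0.10 (unadjusted p = 0.131) and did not pass, although SIRB was called higher after repeated quantile normalization (0.17, adjusted p = 0.0265). Of the 9 genes of this branch, 2 were among the brightest 7628, and 5 had DT means under the pseudogene level.

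Beside shares of 19.9% lower and 9.97% higher over all genes, 4 of 11 genes of chlorophyll b reduction and breakdown rose and 3 fell. The shares were 40.4% and 23.2% in the brightest 7628, which hold 6 of the 11. The median difference of the 11 genes was -0.01. The largest rise was that of SGR2, a stay-green protein and paralogue of SGR1, with 5.96, 6.02 and 6.09 in DT and 4.63, 4.66 and 4.72 in DS (1.35, SE 0.054, adjusted p = 2.08e-06). SGR1, which removes magnesium from chlorophyll a, was at 5.72, 5.82 and 5.82 in DT and at 4.86, 4.86 and 4.87 in DS (0.92, SE 0.047, adjusted p = 6.61e-06). In both genes the DS arrays lay under the pseudogene level and the DT arrays well above it. PPH, pheophytinase, which removes the phytol tail, was at 6.06, 6.08 and 6.10 in DT and at 5.33, 5.25 and 5.31 in DS (0.79, SE 0.046, adjusted p = 1.18e-05). NYC1, a chlorophyll b reductase which acts in the reverse direction of CAO, was at 5.32, 5.44 and 5.44 in DT and at 4.76, 4.85 and 4.996 in DS (0.53, SE 0.070, adjusted p = 0.000725). The fallers were CLH1, a chlorophyllase, at -0.69, TIC55, which acts on the later breakdown products, at -0.48 and RCCR, red chlorophyll catabolite reductase, at -0.27. RCCR was not called without DS replicate 1 or DS replicate 2, nor after repeated quantile normalization (-0.17, adjusted p = 0.0677). PAO, pheophorbide a oxygenase, the ring-opening enzyme, had -0.04 (95% confidence interval -0.16 to 0.08) and NOL, the partner of NYC1, -0.09 (adjusted p = 0.228). The means of NOL lay under the pseudogene level in both groups, and so did the DS mean of NYC1, 4.87, and the DT mean of CLH1, 4.68.

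**Figure D4:**
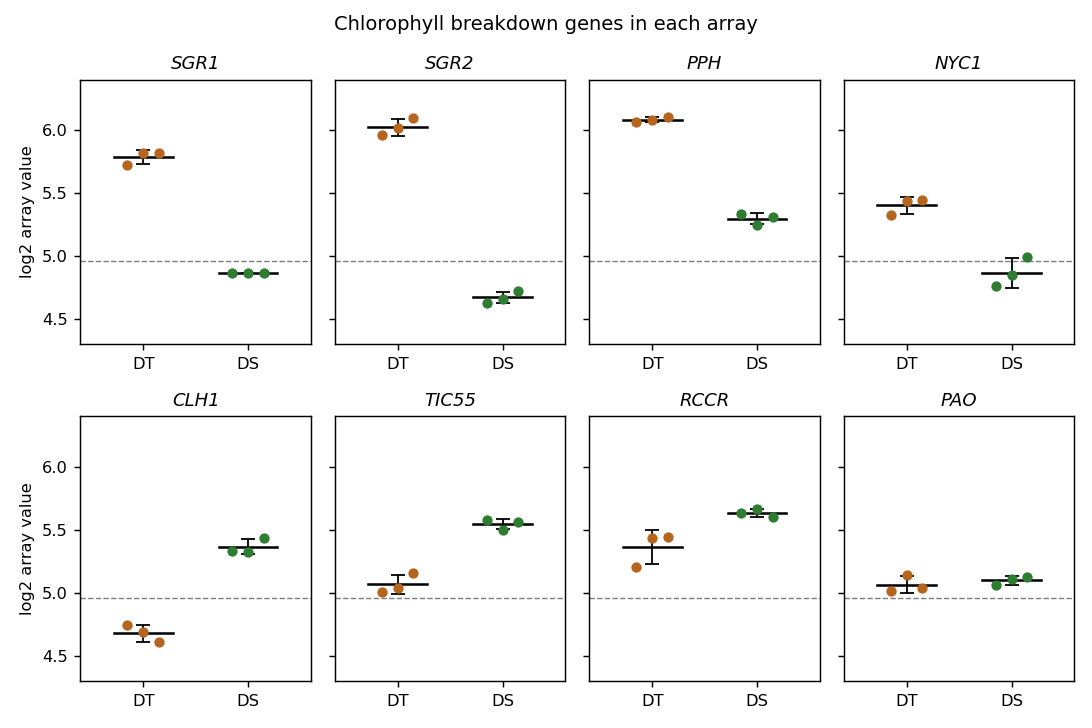
Log2 array value (vertical axis) of 8 of the 11 chlorophyll breakdown genes in the 3 DT arrays (left, brown) and the 3 DS arrays (right, green), with the mean as a bar, the SD as a whisker and the pseudogene level of 4.96 dashed. SGR1, SGR2, PPH and NYC1 were higher in DT with no overlap, CLH1, TIC55 and RCCR were lower, and the groups overlapped in PAO.

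Among 13 regulators of chlorophyll synthesis genes, 6 fell and 2 rose, with a median of -0.19. Over all genes, 19.9% were called lower and 9.97% higher. The brightest 7628, with 7 of the 13, had 40.4% lower and 23.2% higher. In the next 7627, with the other 6, 27.4% were lower. Whether the counts of the 13 differ from these shares was not tested. HY5, a light-stabilized activator, was at 4.80, 4.76 and 4.82 in DT and at 5.35, 5.20 and 5.36 in DS (-0.51, adjusted p = 0.000284). Its DT values lay under the pseudogene level. PIF1 and PIF3, factors that phytochrome removes in light, parted, with 0.30 (adjusted p = 0.00246) and -0.41 (adjusted p = 0.000206). EIN3, an ethylene factor, rose by 0.59 (adjusted p = 4.76e-05), and GUN1, a plastid protein of retrograde signalling, fell by 0.73 (adjusted p = 7.21e-05). CGA1 fell by 0.47, GNC, a GATA factor like CGA1, by 0.25 and GLK2 by 0.20, while GLK1 had -0.13 and did not pass (adjusted p = 0.11). After repeated quantile normalization GLK2 had -0.11 (adjusted p = 0.182) and GNC -0.19 (adjusted p = 0.0975), which left 4 regulators lower, and 3 were then called higher. The GNC call was also lost without DT replicate 1 (adjusted p = 0.101), DT replicate 2, DS replicate 1 or DS replicate 3, with the arrays centred, with array quality weights and with the replicate block (adjusted p = 0.0556 to 0.14). FAR1 had 0.14 and did not pass (adjusted p = 0.0619). It was called higher after repeated quantile normalization (0.22, adjusted p = 0.0091), with the arrays centred, with array quality weights and in a table without dimmer genes (adjusted p = 0.0226 to 0.0437). EIL1 had -0.19 (adjusted p = 0.0558) and was called lower without DS replicate 2 (adjusted p = 0.0155) and in that smaller table (adjusted p = 0.0293). RVE1, a factor known to bind the PORA promoter, had 0.03 (adjusted p = 0.82), with means under the pseudogene level in both groups. The DT means of CGA1 and GNC, 4.79 and 4.81, lay under that level as well.

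Upstream sequence was searched in the 250 bases before the annotated start of each gene on both strands, for the G-box CACGTG, the abscisic acid response element (ABRE) words ACGTGGC and ACGTGTC, the evening element AAAATATCT, and CCAATC and GATAAG. G-box and ABRE words can overlap. Of 25955 such windows of protein-coding genes, 6.68% held the G-box, 6.57% an ABRE word, 2.41% the evening element, 10.2% CCAATC and 12.3% GATAAG. Among the 10 genes, CRD1 and CAO held the G-box, CRD1, PORB and CAO an ABRE word, PORA and PORB the evening element, GUN4 and PORB CCAATC, and PORA GATAAG. The windows of the largest falls (PORB and CHLI1) and of the rise (CAO) are shown, 5′ to 3′ up to the base before the start, without bases that belong to another annotated gene. CRD1 was added after the search because it shares its words with CAO. Capitals mark the words found.
PORB: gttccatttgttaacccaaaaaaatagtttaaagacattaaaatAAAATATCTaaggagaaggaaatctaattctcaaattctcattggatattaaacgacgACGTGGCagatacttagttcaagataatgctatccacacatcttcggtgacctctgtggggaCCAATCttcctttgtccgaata
CHLI1: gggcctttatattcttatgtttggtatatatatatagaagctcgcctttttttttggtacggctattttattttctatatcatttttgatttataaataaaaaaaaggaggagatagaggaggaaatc
CRD1: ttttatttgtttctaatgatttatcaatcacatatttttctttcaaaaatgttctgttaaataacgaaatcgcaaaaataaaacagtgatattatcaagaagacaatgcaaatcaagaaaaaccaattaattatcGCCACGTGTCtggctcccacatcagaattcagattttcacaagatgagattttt
CAO: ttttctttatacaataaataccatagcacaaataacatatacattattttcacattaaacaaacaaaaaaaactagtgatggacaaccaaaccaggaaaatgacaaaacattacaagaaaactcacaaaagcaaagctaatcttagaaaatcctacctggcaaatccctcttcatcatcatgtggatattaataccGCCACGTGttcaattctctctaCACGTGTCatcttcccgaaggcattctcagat

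These windows, from RefSeq TAIR10.1, lie at chr4:13725360-13725545 on the plus strand (PORB), chr4:10203470-10203597 on the minus strand (CHLI1), chr3:21076316-21076504 on the plus strand (CRD1) and chr1:16851272-16851521 on the minus strand (CAO). CRD1 and CAO both carried a G-box that starts 52 bases before the gene start and an ABRE word on the opposite strand that starts 54 bases before it. A match is a description of letters and not a binding site. The windows of GUN4 and PORC lie wholly inside neighbouring genes.

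Genes that mark green plastids, light, darkness and seed tissue were read from short lists. For their counts, 19.9% of all genes were called lower and 9.97% higher, and of the brightest 7628, 40.4% and 23.2%. Of 6 green plastid genes 4 fell and 0 had a value above 0, with RBCS1B, a Rubisco small subunit, at -1.76, LHCA1 at -0.74, LHCA2 at -0.50 and RBCS1A at -0.24, while LHCB2.1 had -0.47 (adjusted p = 0.0981) and LHCB1.1 -0.05 (adjusted p = 0.589). LHCB2.1 was called lower without DT replicate 2 (-0.65, adjusted p = 0.0198) or DS replicate 1 (-0.63, adjusted p = 0.0358), with the replicate block (adjusted p = 0.0111) and in a table without its dimmer genes (adjusted p = 0.037). The DT means of RBCS1B, LHCA1 and LHCB1.1 lay under the pseudogene level. The light-induced genes ELIP1 and CHS fell by 2.27 and 1.08. ELIP1 was at 5.95, 4.81 and 4.84 in DT and at 7.64, 7.38 and 7.38 in DS, so DT replicate 1 stood above its partners here as it did for PORB, GUN4 and CRD1. Of the 3 dark-induced genes, ASN1 rose by 0.96 (adjusted p = 7.16e-06), DIN10 fell by 1.69 (adjusted p = 7.42e-05) and SEN1 had 0.00 (adjusted p = 0.991). The DS mean of ASN1 and the DT mean of DIN10 lay under the pseudogene level. Of the genes listed with the endosperm, MAN7 rose by 1.21 and EPR1 had 0.17 (adjusted p = 0.404). Of the 3 genes listed with the embryo, CP1 and GA3OX1 fell by 1.91 and 0.71. EXPA2, an expansin gene and the remaining gene of that list, rose by 0.54 (adjusted p = 0.0151). The listed genes of the embryo thus went in both directions. The tissue of none of these 5 genes was checked here, so neither the falls nor the rises are a reading of a tissue. The call of EXPA2 was lost without DT replicate 2, DT replicate 3, DS replicate 2 or DS replicate 3 (adjusted p = 0.0507 to 0.0532). All 5 tissue genes had means above the pseudogene level in DS, while the DT mean of GA3OX1, 4.67, was under it. The part of a shift between tissues in the fall of the chlorophyll synthesis genes was not tested.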

How the data were processed

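Biotinylated cRNA from 3 DT and 3 DS replicates had been hybridized to Affymetrix SNPtile arrays. According to their methods, the authors obtained signals in R by way of a TAIR9 annotation, and quantile normalized them. The deposited values of 30509 genes were read as log2, an assumption that rests on their range and on the log2 ratios the study uses, since the table does not name a scale. How probes were summarised, how background was treated and which strand was read are not given in the sources used here.

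Groups followed the labels. The DT minus DS difference of every gene was estimated with limma 3.58.1 under R 4.3.3, with moderated variances and no covariates, and Benjamini-Hochberg adjustment over all genes. The fit was tested on simulated data. POR contrasts used scipy 1.17.1. Positions and upstream sequence were read with Python 3.11.15 from RefSeq TAIR10.1, to which 30078 of the loci matched. With 6 arrays, their number limits the precision.

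The 10 genes and the lists were chosen with earlier results of these data known. Named were the 10 genes, all called genes of the pathway lists, HEMA2, HEMA3, CHLI2, CHLD, FLU, CHLG, DVR, CHLP and all markers; other list genes and overlapping loci were named after their values were seen. Alternatives changed the scaling, the variance model, the genes tested, the blocking, the arrays and the call rule. Protein sequences were not used here.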

Additional observations from a re-analysis of the deposited data

How the results depend on the processing

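Across scaling, variance models, a table without its dimmer genes, blocking by replicate number and omission of each array, 9 of the 10 genes were lower in DT with an adjusted p of at most 0.05 in all 12 alternatives. The median difference of the 10 genes lay between -0.80 and -0.73 with an array left out. It was -0.71 with the arrays centred and -0.66 after repeated quantile normalization. With the stricter rule (a log2 difference of 1 and an unadjusted p of at most 0.05), 3 of the 10 genes were lower and 0 higher, 415 genes of the whole table were lower and 263 higher, and of the 60 other pathway genes 3 were lower and 1 higher. The 1 gene called higher, CAO, became 0 with array quality weights (adjusted p = 0.0509) and with the replicate block (adjusted p = 0.0618), and 0 or 1 with an array left out. Centring the arrays moved the median difference of all genes to 0.02, beside -0.02 as deposited, and repeated quantile normalization moved it to 0.01. The whole table then had 5226 lower and 4052 higher, and 5026 lower and 4484 higher, beside 6085 lower and 3043 higher as deposited. With an array left out, the whole table had 5000 to 5664 lower and 2394 to 3363 higher, and the 60 other pathway genes 27 to 30 lower and 8 higher, beside 31 lower and 8 higher with all arrays and 25 lower and 10 higher after repeated quantile normalization. The shift of PORA minus PORB lay between 0.93 and 1.20, PORA minus PORC between 0.28 and 0.36 and PORB minus PORC between -0.83 and -0.64.

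Deviations from the group means correlated at 0.061, -0.01 and 0.104 between same-numbered arrays of DT and DS, and at -0.133 to 0.073 between differently numbered ones. All of these were small and the ranges overlapped, and the numbers were not taken to pair the samples. With the replicate block, 9 of the 10 genes were lower and 0 higher, and the whole table had 5944 lower and 2958 higher. The POR shifts were then 1.02, 0.31 and -0.71, each with p = 0.25 by sign-flip permutation, the smallest value possible. Signals under the pseudogene level, reached in DT by 5 of the 10 genes, limit how large a fall can be measured. The causes of these dependences were not tested.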
